A study of Mus musculus with 2 samples.

Results

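The blood-testis barrier and the cell junctions of TM4 cells were examined through 40 genes that encode tight, adherens, gap and desmosomal junction proteins, out of 22609 genes counted. The genes were taken by symbol from the gene rows of both libraries, and all 40 had a row. A gene was called detected when its reads, summed over both libraries, reached 20, and 27 of the 40 genes (67.5%) passed, against 12186 of all genes (53.9%). TM4 is an established cell line derived from Sertoli cells of the immature mouse testis. The cells were grown in DMEM with FBS and transfected with miR-471-5p mimic or with scramble, a control RNA, and 48 h later RNA was recovered with an Ago2 antibody and sequenced. Ago2 is the Argonaute protein through which a miRNA acts on the mRNAs with which it pairs. There was 1 library from each transfection, the mimic library with 18628310 reads on genes and the scramble library with 18717225, so that no difference has a replicate check and no test between the conditions was possible. No library of input RNA was used here, and a difference in mRNA amount and a difference in Ago2 association cannot be told apart. This holds for levels too, so that a low count, or none, does not show that the mRNA is absent from the cells.

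Sertoli cells are the somatic cells that surround developing germ cells in the seminiferous tubule. Near the base of the tubule neighbouring Sertoli cells are joined by the blood-testis barrier, in which tight junctions, actin-based adherens junctions known as ectoplasmic specializations, gap junctions and desmosomes lie side by side. Claudins and occludin seal the space between cells, zonula occludens proteins anchor them to actin, cadherins and nectins hold the cells together through catenins and afadin, connexins form channels between cells, and desmosomal cadherins link to intermediate filaments through plakins and plakophilins. The junctions open and close again as germ cells cross the barrier.

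The transfected miRNA is shown first because its seed defines the sites searched for in the junction genes. Its mature sequence in RefSeq (GRCm38.p6, chrX:66792634-66792655, minus strand) is printed below with the seed, bases 2 to 8, in capitals.
miR-471-5p: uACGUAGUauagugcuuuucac

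A 7mer-m8 match pairs with bases 2 to 8 of the miRNA and reads ACTACGT in the mRNA, a 7mer-A1 match reads CTACGTA, an 8mer match reads ACTACGTA and holds both, and the 6mer match CTACGT lies within all of these. The sense strand of the longest annotated 3′-UTR and of the longest coding region of each gene was searched (GENCODE M21, GRCm38). None of the 27 detected junction genes had a 7mer or 8mer match in the 3′-UTR, where a 7mer-m8 match was found in 1.56% and an 8mer match in 0.4% of all tested genes. Ocln, the gene for occludin, had a 6mer match in the 3′-UTR, as did 6.77% of tested genes. In coding regions, Magi3 was the detected junction gene with a 7mer-m8 match, which 4.34% of tested genes had. Magi3 encodes a membrane-associated scaffold with several PDZ domains. Coding 6mer matches, present in 16.3% of tested genes, were in Ctnna1, Magi3, Mllt4 and Ocln.

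Among the 13 junction genes under the minimum, 6 had a 7mer or 8mer match in the coding region or the 3′-UTR, which were Cldn3, Dsc2, Dsg2, Espn, Marveld2 and Tjp3. This compares with 1 of the 27 detected junction genes (3.7%), with 8.08% of all genes that reached the minimum and with 5.23% of those that did not. The comparison was made after the matches were seen and was not tested. Sites are printed below with the match in capitals, for Magi3, the detected gene with a 7mer, for Ocln, the detected gene with a 3′-UTR match, and for 4 genes under the minimum, whose counts are too low for a ratio. The Magi3 site was in coding exon sequence at chr3:104061635-104061641 (minus strand, exon 7 of 21), and the Ocln site was in the last exon, within the 3′-UTR, at chr13:100496763-100496768 (minus strand). The Cldn3 site lay at the end of the coding region at chr5:134987094-134987100 (plus strand), 1 base before the stop codon. The Marveld2 site was in exon 4 of 7 at chr13:100600892-100600898 (minus strand), and the Tjp3 site in exon 17 of 21 at chr10:81274735-81274741 (minus strand). Espn had a 7mer-A1 match in exon 5 of 12 at chr4:152138444-152138450 and a 7mer-m8 match in exon 12 at chr4:152125925-152125931 (both minus strand).
Magi3 coding, 7mer-m8: ctcagtatggaacatACTACGTtgat
Ocln 3′-UTR, 6mer: tttttggttttcatacCTACGTtctg
Cldn3 coding, 7mer-m8: cctacgaccgcaaggACTACGTctga
Marveld2 coding, 7mer-m8: ctatcgtgatgcctgACTACGTggca
Tjp3 coding, 7mer-m8: ccatcgagcgcctcaACTACGTgcag
Espn coding, 7mer-A1: cactgttcccgctacCTACGTAcggt
Espn coding, 7mer-m8: ccatcctcgaggagaACTACGTggca

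The levels of the 40 genes in the 2 libraries spanned from 0 to 24847 reads, with wide and overlapping ranges within the junction types. Nectins and afadin (3 of 3), polarity scaffolds (4 of 4), connexins (2 of 2) and cadherins with catenins (5 of 6) were detected almost completely. Of the tight junction genes 9 of 17 were detected, 6 of the 13 membrane proteins and 3 of the 4 plaque proteins. Desmosomal genes were detected for 3 of 6, all 3 of them armadillo-repeat proteins (Pkp2, Pkp4 and Jup), while the desmosomal cadherins and the plakin Dsp were not. Together the 13 genes under the minimum had 39 mimic and 25 scramble reads. Reads of the mimic library are given as mimic reads and those of the scramble library as scramble reads. Nearest to the minimum, Espn had 13 mimic and 6 scramble reads and Cdh1 had 7 and 9, both left out, while Ocln had 12 and 10 and Cgn 17 and 8, both kept.

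**Figure D1:**
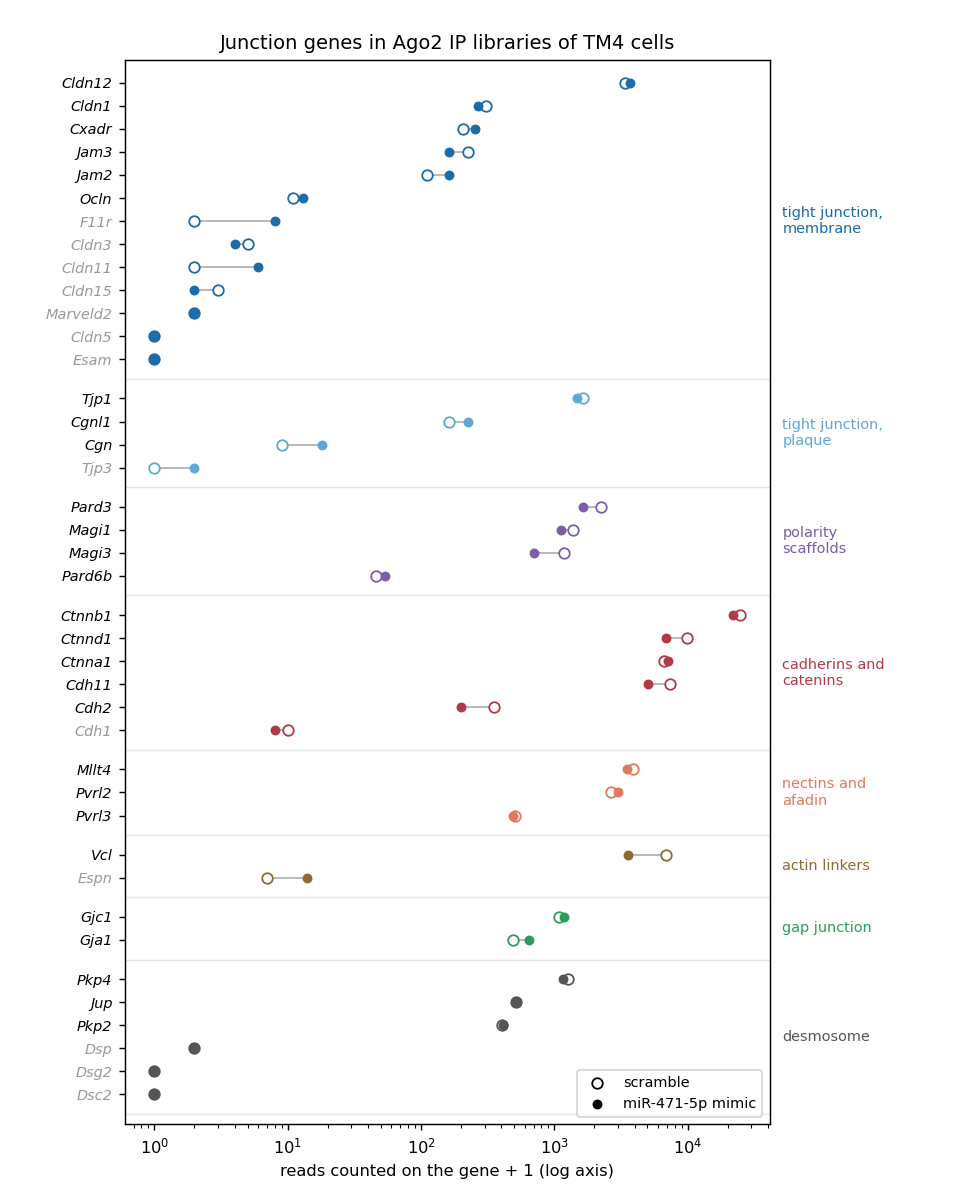
Reads counted on each of the 40 junction genes plus 1 (log axis), grouped by junction class, in the scramble library (open circles) and the mimic library (filled circles), with gene names in grey for the 13 genes that had fewer than 20 reads over both libraries. Cadherins, catenins, nectins and polarity scaffolds lie to the right except for Cdh1 and Pard6b, while 7 of the 13 tight junction membrane genes and 3 of the 6 desmosomal genes are in grey. Ocln and Cgn, just over the minimum, lie about as far left as Espn and Cdh1, just under it.

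Tight junction membrane proteins were represented mainly by Cldn12, a claudin that lacks the usual carboxy-terminal PDZ-binding motif. Cldn12 had 3686 mimic and 3412 scramble reads. Per length, as counts scaled to the library total (CPM) per kilobase of the longest annotated transcript, its level was 48.6 in the scramble library, and it made up 92% of the summed level of the 6 claudin genes there and 93.4% in the mimic library. Cldn1 was the other claudin detected, with 266 mimic and 309 scramble reads, and its level per length was 12.2-fold lower than that of Cldn12 in the scramble library (95% interval 10.9 to 13.7) and 15.3-fold lower in the mimic library (13.5 to 17.4). These intervals are exact binomial ones and cover counting error only, as do all intervals given here.

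The claudins that characterize the barrier in the testis were at or near the smallest detectable amount in the Ago2-bound RNA. Their mRNA level in the cells was not measured. Cldn11, which forms the tight junction strands between Sertoli cells, had 5 mimic and 1 scramble reads. Cldn3, an androgen-regulated claudin of the newly forming barrier, had 3 mimic and 4 scramble reads. The study followed it by RT-qPCR in testes of transgenic mice, a different measure and tissue. Cldn5, better known from endothelium, had no read in either library, which allows up to 3 reads, or 0.161 CPM in the mimic library and 0.16 CPM in the scramble library. Cldn15 had 1 and 2 reads. The level of Cldn12 per length was 286-fold that of Cldn3 in the scramble library, with an interval from 112 to 1051, and 412-fold in the mimic library, with an interval from 141 to 2000.

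Occludin, a tight junction membrane protein and a component of the barrier that the study followed by RT-qPCR in testis, was just above the minimum. Ocln had 12 mimic and 10 scramble reads, and its level per length of 0.132 in the scramble library lay at percentile 1.03 of all tested genes. Marveld2 (tricellulin), which seals the corners between cells, had 1 read in each library. Marveld1, a further protein with a MARVEL domain that is not among the 40 genes, had 4044 mimic and 4170 scramble reads, 364-fold and 450-fold the level of Ocln per length (intervals 208 to 704 and 244 to 939).

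Adhesion molecules of the immunoglobulin family were detected at intermediate counts. Jam2 had 162 mimic and 110 scramble reads, Jam3 had 161 and 224, and Cxadr, the coxsackievirus and adenovirus receptor, had 252 and 206. F11r, the gene for JAM-A, had 7 mimic and 1 scramble reads, and Esam, an adhesion molecule of endothelium, had none in either. JAM-B and JAM-C, the products of Jam2 and Jam3, bind each other.

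The cytoplasmic plaque of the tight junction was represented by Tjp1, the gene for ZO-1, with 1472 mimic and 1651 scramble reads. Tjp3 (ZO-3) had 1 mimic and 0 scramble reads. Cgnl1 (paracingulin) had 224 mimic and 160 scramble reads, and its relative Cgn (cingulin) had 17 and 8.

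The highest levels of the 40 genes were in the cadherin and catenin group. Ctnnb1 encodes beta-catenin, which binds cadherin tails and also acts in Wnt signalling. It had 21988 mimic and 24847 scramble reads, a level per length of 366 in the scramble library that lay at percentile 99.5 of all tested genes. It held 39% of the summed level of the 40 genes in the scramble library. Ctnna1 (alpha-catenin), which connects beta-catenin to actin, followed with 95.2 per kilobase, and Ctnnd1 (p120-catenin), which stabilizes cadherins at the membrane, with 82.6. Levels of multi-transcript genes depend on the transcript length chosen, and with the median annotated transcript length the share of Ctnnb1 was 53.4%.

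Among the cadherins Cdh11, a type II cadherin of mesenchymal cells, accounted for 94.6% of the summed level of the 3 genes in the scramble library and for 95.4% in the mimic library. Cdh11 had 5057 mimic and 7323 scramble reads. Cdh2 (N-cadherin), the main classical cadherin of Sertoli cells in the testis, had 200 mimic and 352 scramble reads. Cdh1 (E-cadherin), the cadherin of most epithelia, had 7 and 9. The level of Cdh11 per length exceeded that of Cdh2 17.8-fold (interval 16 to 19.9) and that of Cdh1 638-fold (336 to 1396) in the scramble library.

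Nectins, whose cytoplasmic tails bind afadin, were led by Pvrl2 (nectin-2, current symbol Nectin2) with 3026 mimic and 2645 scramble reads. Pvrl3 (nectin-3), the partner on the germ cell side of the ectoplasmic specialization, had 493 and 510. Afadin itself, listed as Mllt4, had 3491 mimic and 3911 scramble reads. Vcl encodes vinculin, an actin-binding protein of adherens junctions and focal adhesions. It had 3567 mimic and 6928 scramble reads. Espn (espin), the actin-bundling protein that marks ectoplasmic specializations, was under the minimum, as given above.

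Both connexins were detected. Gjc1 (connexin 45) had 1174 mimic and 1079 scramble reads. Gja1 (connexin 43), the connexin best known from Sertoli cells, had 650 and 491. Per length Gjc1 stood 2.5-fold above Gja1 in the scramble library (interval 2.25 to 2.79) and 2.06-fold above it in the mimic library (1.87 to 2.27).

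Desmosomes are built from desmogleins, desmocollins and desmoplakin, and the genes of these among the 40 were not detected. Dsg2 and Dsc2, the latter followed by the study in testis, had 0 reads in both libraries, which allows up to 3 reads in each, and Dsp (desmoplakin) had 1 read in each. Of the 40 genes Dsc2 was the 1 with an 8mer match, which lies in the coding region across the junction of exons 8 and 9, and it also had a 7mer-m8 match that is in the 3′-UTR of 1 annotated transcript and in the coding region of another. With 0 reads, no ratio of mimic to scramble exists for it. The armadillo-repeat proteins, which also occur outside desmosomes, were present in both libraries. Pkp4 had 1165 mimic and 1264 scramble reads, Jup (plakoglobin) had 519 and 514, and Pkp2 had 414 and 402.

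The order of levels per length in the scramble library began with Ctnnb1, Ctnna1, Ctnnd1, Vcl and Cdh11 and went on with Pvrl2, Cldn12, Mllt4, Pard3 and Gjc1. The levels of Vcl (70.3) and Cdh11 (69.3) lay close together, as did those of Magi3 (9.58) and Magi1 (9.32) and those of Cldn1 (3.98) and Cdh2 (3.88). With 1 library per condition, the spread needed to separate such neighbours is unknown. In the mimic library the first 2 positions were the same, and Pvrl2 took the third place with 59.4, while Vcl lay seventh with 36.4.

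**Figure D2:**
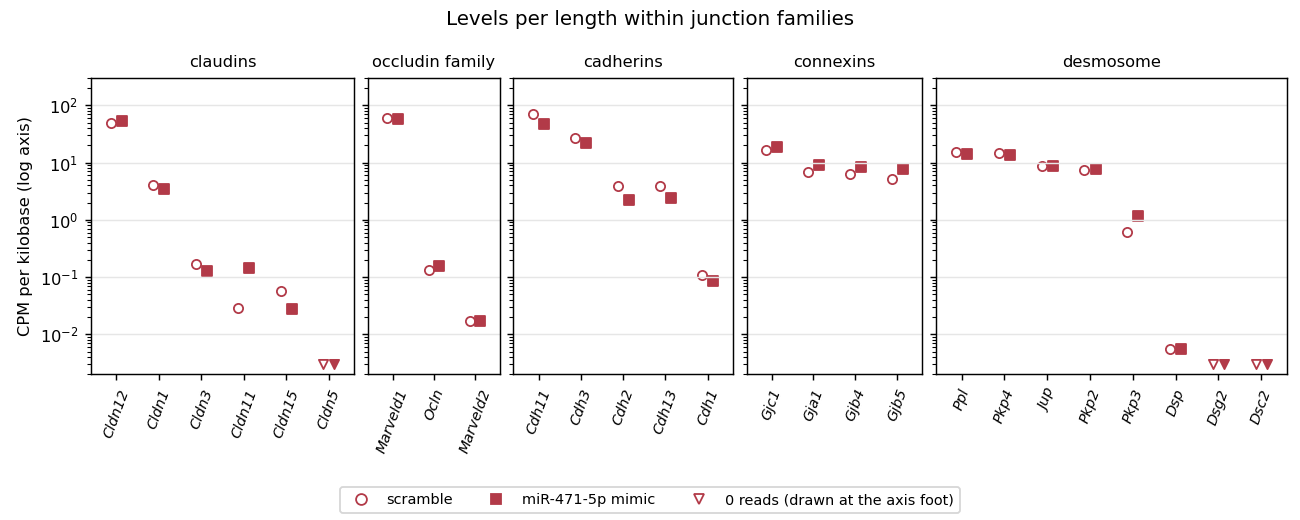
Level per length, as CPM per kilobase of the longest annotated transcript (log axis), of genes of 5 junction families in the scramble library (open circles) and the mimic library (filled squares), with triangles for genes with 0 reads in a library. Of the genes shown, Cldn12, Marveld1 and Cdh11 stand highest in their panels in both libraries, and Cldn5, Dsg2 and Dsc2 have 0 reads.

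Mimic and scramble were then compared through the log2 ratio of the 2 libraries, scaled by the TMM method of edgeR and with 0.5 read added to each count. The 27 detected junction genes had a median log2 ratio of -0.05, with a range from -0.96 to 1.04, and 13 lay above and 14 below 0, where 49.9% of tested genes lay above. Over the 12186 tested genes the median was 0.00 and the SD 0.58. A log2 ratio of at least 1 was reached by 1 junction gene, Cgn, whose interval included 0, where 3.96% of all tested genes reached it. None was at or below -1, which 2.95% of tested genes were. At the lower limit of 0.5 in either direction, Cgn and Jam2 were at or above 0.5 (14.9% of tested genes) and Vcl, Cdh2, Magi3, Cdh11 and Ctnnd1 were at or below -0.5 (12.1% of tested genes). The counting interval lay above 0 for 8 and below 0 for 12 of the 27 genes, against 31.5% and 32.5% of tested genes. Most intervals over the whole table excluded 0 as well, and they give the precision of the counts and not a call.

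**Figure D3:**
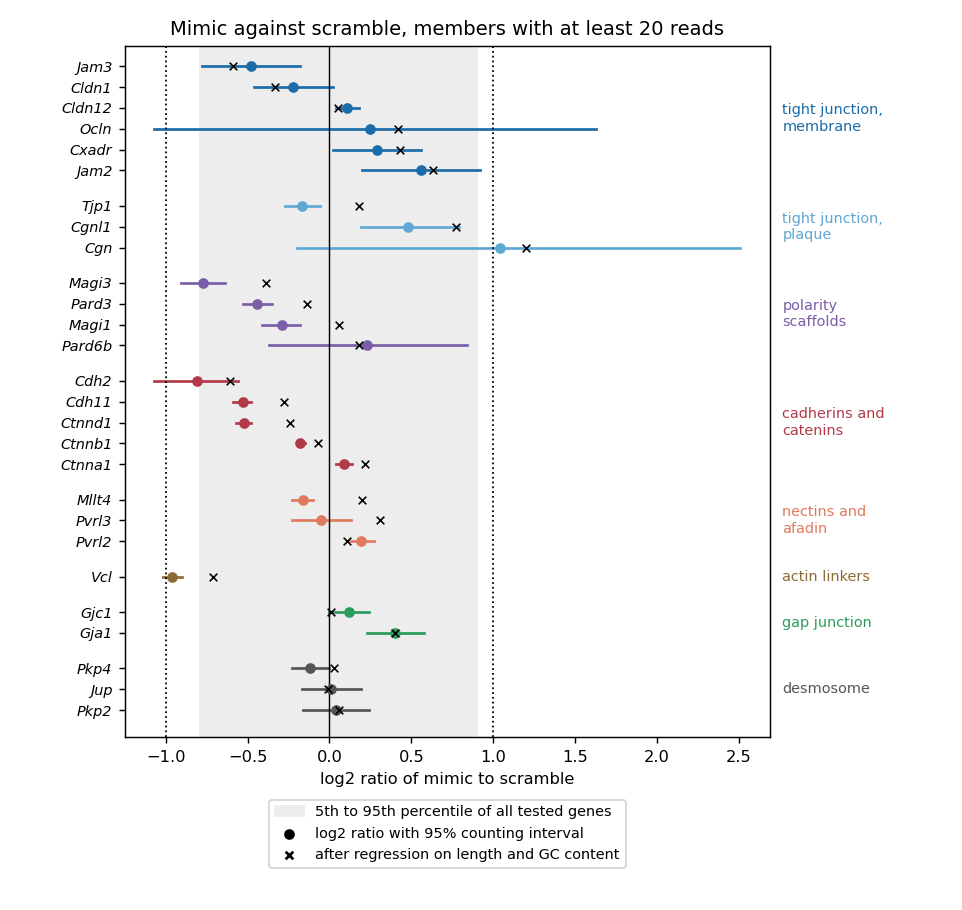
Log2 ratio of mimic to scramble of the 27 detected junction genes (dots) with the 95% counting interval (bars), by junction class, and the value left after regression on length and GC content (crosses). The grey band spans the 5th to 95th percentile of all tested genes, from -0.79 to 0.90, and dotted lines mark log2 ratios of -1 and 1. Vcl at -0.96, Cdh2 at -0.81 and Cgn at 1.04 lie outside the band.

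Between junction classes, the detected tight junction genes had a median of 0.25 (9 genes, 6 above 0), and the detected adherens junction genes, taken as cadherins, catenins, nectins, afadin and actin linkers, had a median of -0.18 (9 genes, 7 below 0). The median was 0.18 for tight junction membrane proteins, 0.48 for plaque proteins and 0.26 for connexins. It was -0.37 for polarity scaffolds, -0.52 for cadherins and catenins and -0.05 for nectins and afadin, while desmosomal genes were at 0.01. The classes overlapped, with tight junction genes from -0.48 to 1.04 and adherens junction genes from -0.96 to 0.19. After the regression on length and GC content described below, the medians were 0.42 for tight junction and -0.07 for adherens junction genes. Classes of 1 to 6 genes were described only, and no difference between them was tested.

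The lowest ratio was that of Vcl, at -0.96 (interval -1.02 to -0.90), at percentile 3.28 of all tested genes. Vcl overlaps the gene Ap3m1 on the opposite strand over 39.7% of its longest transcript, and Ap3m1 had 1859 mimic and 2537 scramble reads, a log2 ratio of -0.45. Whether the counting used strand is not given in the sources used here, and the part of this overlap in the ratio of Vcl was not tested.

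In the cadherin and catenin group, Cdh2 had a log2 ratio of -0.81 (interval -1.07 to -0.56) and Cdh11 one of -0.53 (-0.59 to -0.48). Ctnnd1 was at -0.52 (-0.57 to -0.48). Of its longest transcript 70.4% is shared with the gene model Gm28635 on the same strand, for which the tables had no row of that symbol. The most abundant gene, Ctnnb1, was at -0.18 (-0.20 to -0.15), and 20.9% of its longest transcript overlaps Ulk4 on the opposite strand, which had 206 mimic and 246 scramble reads. Ctnna1 was above 0 at 0.09 (0.04 to 0.14). Lower counts in the mimic library were thus seen for both detected cadherins and for p120-catenin, but alpha-catenin lay on the other side of 0.

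Polarity scaffolds organize the junction at the border of apical and lateral membrane. Magi3 had 698 mimic and 1191 scramble reads, a log2 ratio of -0.77 (interval -0.91 to -0.64). Pard3, a core scaffold of the Par complex, had 1654 and 2240 reads and a ratio of -0.44 (-0.53 to -0.35), and Magi1 had 1130 and 1383 reads and a ratio of -0.29 (-0.41 to -0.18). Pard6b was at 0.23 with an interval that included 0, on 53 and 45 reads. Magi3, the detected junction gene with the coding 7mer-m8 site printed above, was among the lower genes in the mimic library. Its log2 ratio was -0.39 after the regression on length and GC content described below. The study reported seed matches to be more likely among mRNAs whose Ago2 association rose with the mimic, which is the opposite direction. Any part of the site in the ratio of Magi3 was not tested. The 511 tested genes with a coding 7mer-m8 match had a median of -0.03.

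On the tight junction side, Jam2 was at 0.56 (interval 0.20 to 0.92) and Jam3 at -0.48 (-0.78 to -0.18). Of the longest Jam3 transcript 30.3% overlaps the antisense model Gm48796, for which the tables had no row of that symbol. Cxadr was at 0.29 (0.02 to 0.56) and Cldn12 at 0.11 (0.04 to 0.18). Cldn1 was at -0.22 (-0.46 to 0.02) and Ocln at 0.25 (-1.07 to 1.63), a width that leaves the direction of occludin undetermined at this depth. In the plaque, Cgn was at 1.04 (-0.20 to 2.51), Cgnl1 at 0.48 (0.19 to 0.79) and Tjp1 at -0.17 (-0.27 to -0.06).

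Among the remaining genes, Gja1 was at 0.40 (interval 0.23 to 0.58) and Gjc1 at 0.12 (0.00 to 0.24). Pvrl2 was at 0.19 (0.12 to 0.27), Mllt4 at -0.16 (-0.23 to -0.10) and Pvrl3 at -0.05 (-0.23 to 0.13). The desmosomal genes Pkp2, Jup and Pkp4 had values from -0.12 to 0.04. Scaling by total counts or by the size factors of DESeq2 left the sign of all 27 genes as it was. The regression on length and GC content described below turned the sign of 6 of them, with Tjp1 going to 0.18, Mllt4 to 0.20, Magi1 to 0.06, Pvrl3 to 0.31, Pkp4 to 0.03 and Jup to -0.01.

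The ratio depended on transcript length over the whole table, and this bears on the classes because their genes differ in length. Over 11756 tested genes with both regions annotated, Spearman's rho of the log2 ratio with coding length was -0.41, given as a description across genes of the same 2 libraries, and over the 27 junction genes it was -0.35. The median of all tested genes went from 0.27 in the shortest of 4 equal groups by coding length, through 0.06 and -0.08, to -0.21 in the longest. Of the 27 junction genes 15 were in the longest group, with a median of -0.18. Adherens junction and scaffold genes such as Vcl, with a coding region of 3201 nt, and Magi3, with 4431 nt, were in that group, whereas Cldn12 has 735 nt and Jam2 has 969 nt.

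**Figure D4:**
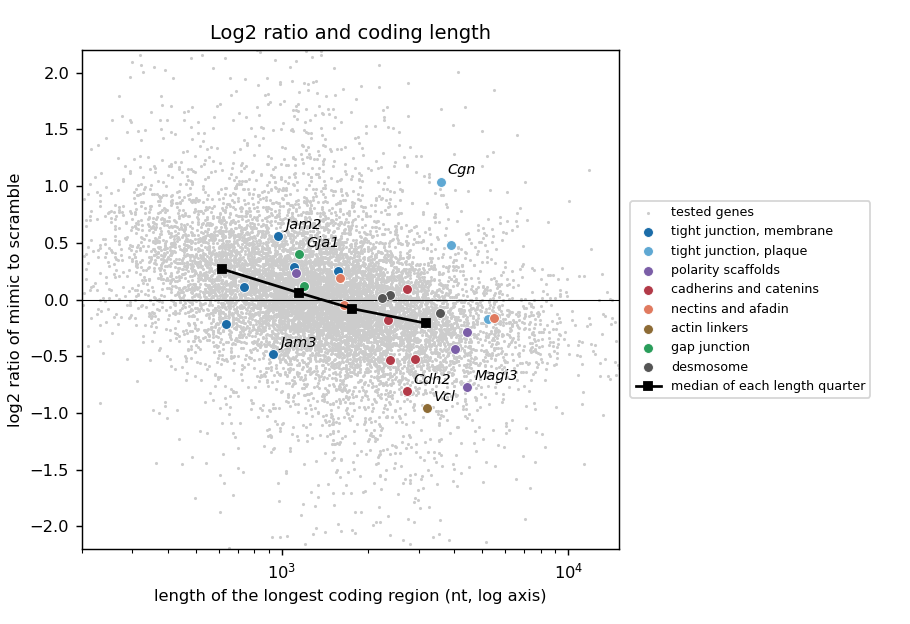
Log2 ratio of mimic to scramble against the length of the longest coding region (log axis) for tested genes (grey, 11644 shown and 128 outside the axes), with the 27 detected junction genes coloured by class and the median of each of 4 groups of equal size by length (black squares, 0.27 to -0.21). Most junction genes below 0 lie at long coding regions, where the median of all genes is below 0 too, and Cgn and Cgnl1 lie above it.

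A regression of the log2 ratio on the length and GC content of coding region and 3′-UTR explained 18.6% of the variance over the tested genes. After it the median of the 27 junction genes was 0.06. The median of the cadherin and catenin group was -0.24 in place of -0.52, that of polarity scaffolds -0.04 in place of -0.37 and that of nectins and afadin 0.20 in place of -0.05, while that of plaque proteins was 0.77 in place of 0.48. Vcl (-0.71), Cdh2 (-0.61) and Jam3 (-0.59) were at or below -0.5, as 10.1% of genes were, and Cgn (1.20), Cgnl1 (0.77) and Jam2 (0.63) were at or above 0.5, as 10.2% were. Magi3 was at -0.39, Cdh11 at -0.28 and Ctnnd1 at -0.24.

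A further 88 junction genes, chosen by family, were read for comparison, and 86 had a row under the symbol used. Of these 49 were detected (57%), with a median log2 ratio of -0.15, 18 above 0 and 31 below. At a log2 ratio of 1 in either direction there were 2, where 3.96% of tested genes were at least that high and 2.95% that low. These were Itga6 at -1.23 on 100 mimic and 235 scramble reads, and Gjb2 at 1.30 on 18 and 7. Itga6 encodes an integrin of the ectoplasmic specialization, and Gjb2 encodes connexin 26. Of the 10 genes at or below -0.5 (12.1% of tested genes), Llgl2 (-0.97) and Dlg1 (-0.84) encode polarity proteins, Itgb1 (-0.76, 13414 and 22643 reads) the integrin beta 1 chain and Zyx (-0.67, 8004 and 12715 reads) the focal adhesion protein zyxin. The 11 further actin linkers and adhesion proteins were all detected, with a median of -0.28 and 8 intervals below 0, where 32.5% of tested genes had such an interval. The medians of the other further classes were -0.40 for cadherins and catenins, -0.39 for nectins and their partners, -0.16 for polarity scaffolds, 0.07 for connexins (-0.23 after the regression) and 0.30 for desmosomal genes. The 11 further tight junction genes detected had a median of -0.04, with 5 above and 6 below 0, against 0.25 for those of the 40 genes.

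In the other direction, Pvr, the nectin-like poliovirus receptor, had 1141 mimic and 642 scramble reads (0.83), Pkp3 had 64 and 33 (0.94) and Gjb5 had 251 and 169 (0.57). Of 15 further tight junction membrane genes with a row, 3 were detected, Marveld1, Cldn19 and Lsr, and 8 had 0 reads in both libraries. The further desmosomal cadherins had 0 or 1 read each. Cdh3 (P-cadherin), with 1802 and 2188 reads, was the next cadherin after Cdh11, whose level per length was 2.6-fold higher in the scramble library (interval 2.48 to 2.73). The plakin Ppl (periplakin) was detected with 1656 and 1797 reads, where Dsp was not.

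The label of the cells was compared with marker genes of Sertoli cells and of other cell types. Of 16 Sertoli genes with a row 8 were detected. Sox9, the transcription factor of Sertoli fate, had 1228 mimic and 1070 scramble reads, Gata4 had 341 and 365, Wt1 had 73 and 35, and Kitl, the ligand of the germ cell receptor Kit, had 12245 and 16163. Fshr, the receptor through which FSH acts on Sertoli cells, had 0 reads in both libraries, as had Gata1, while Amh had 5 in each and Dmrt1 1 in each. Of 10 epithelial genes Krt19 alone was detected, with 1575 and 958 reads, Epcam had 2 reads in each library, and Krt18 and Esrp1 had 0. Krt18 has processed pseudogenes, and reads that aligned to several places were not counted on genes. All 15 mesenchymal genes were detected, with Vim at 121464 mimic and 83153 scramble reads and Acta2 at 73076 and 101778. The low counts of Cdh1, Cldn3 and Dsp were thus measured in cells whose libraries held few reads of other epithelial genes, and the part of this in the junction profile was not tested. Of the markers of other testis cells, 3 of 8 germ cell genes, 1 of 6 Leydig cell genes, 1 of 6 endothelial genes and 2 of 6 macrophage genes were detected. Their sums in the scramble library were 7.85 CPM for germ cells, 4.7 for Leydig cells, 3.31 for endothelium and 3.21 for macrophages, and in the mimic library 7.14, 4.51, 2.74 and 5.74.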

How the data were processed

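Ago2 RNA IP libraries (TruSeq, Illumina) were made from miR-471-5p mimic-transfected and scramble-transfected TM4 cells, 1 library per condition, 48 h after transfection. For each gene symbol the authors deposited the unnormalized read count. Their processing notes name CASAVA 1.8.2, TopHat2 2.0.8b, HTSeq and the build mm9, and the annotation and strandedness are not given in the sources used here. Rows that name no gene held 47.3% of the entries of the mimic library and 44.1% of those of the scramble library, mostly alignments to several places (39.8% and 35.6%), and were left out. Genes with near-identical copies are therefore undercounted.

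The TMM factors, from edgeR 4.0.16 under R 4.3.3, were 1.0026 (mimic) and 0.997404 (scramble). Genes whose counts summed to 20 or more were compared by the log2 ratio, with 0.5 count added. No variation between replicates could be estimated, so edgeR could fit no quasi-likelihood test and no p-value was computed. The 95% intervals come from the exact Clopper-Pearson method on the share of a gene's counts in the mimic library and cover counting error only, since the reads carry no molecular identifiers. A depth of 18628310 and 18717225 reads on genes makes 3 counts, taken as the detection limit, equal to 0.161 and 0.16 CPM. Transcript, coding and 3′-UTR lengths and sites came from GENCODE M21 (GRCm38) and were matched by symbol or synonym (20284 and 1907 genes), because no mm9 annotation was used here. Residuals came from a linear and quadratic regression on log length and GC content of the coding region and the 3′-UTR. The scripts were tested on simulated data. The versions were 2.4.6 for numpy, 2.3.3 for pandas and 1.17.1 for scipy (Python 3.11.15).

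The 40 genes, their classes, the further junction genes and the marker lists were chosen with earlier results of these data known. The rule for named genes was to give both counts, the log2 ratio and its interval for members followed by the study, members whose log2 ratio was 0.5 or more, or -0.5 or less, the highest members per class by level and members with a 7mer or 8mer match. Other members named beside them were added to account for every gene, as were further junction genes beyond those past 2-fold and the most abundant per class, which were chosen after their values were seen. The alternatives were other scaling (total counts, DESeq2 1.42.0 size factors), other count minimums, other added counts, the residual ratio, a lower threshold, median transcript length and other seed match types. Some further junction and marker genes that were counted in the lists are not reported here by name.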

Additional observations from a re-analysis of the deposited data

How the results depend on the processing

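Of 86 alternative values computed, 17 left the counting interval of the reported value, or for counts changed by over 1.5 times, and 69 did not. The number of junction genes past 2-fold, reported as 1, was 5 without a filter beyond 1 count (adding Cldn11, F11r, Tjp3 and Espn, all with fewer than 20 reads), 0 with at least 200 counts, 0 with 2 counts added and 7 at a log2 threshold of 0.5. For the further junction genes, reported as 2, it was 10, 1 and 14 without a filter, with at least 200 counts and at the lower threshold. Class medians moved with the count minimum for plaque proteins (0.48 to 0.16 with at least 200 counts), cadherins and catenins (-0.52 to -0.43 with no filter) and actin linkers (-0.96 to 0.05 with no filter, which adds Espn). With the residual ratio they moved to -0.04 for polarity scaffolds, -0.24 for cadherins and catenins, 0.20 for nectins and afadin and -0.71 for actin linkers, where the length of the genes enters by construction. The plaque median, with wide intervals, was 0.77 with the residual ratio and 0.76 with no filter. The share of Ctnnb1 in the summed level was 39% as reported, 53.4% with the median transcript length and 39.5% in the mimic library. With the 6mer in place of the 7mer-m8, 1 detected junction gene had a match in the 3′-UTR, and none otherwise. No paired analysis was possible because there was 1 library per condition, and for the same reason no library could be left out. With 1 library per condition, the depth limits single genes: Ocln, Cgn and Pard6b had intervals wider than 1 on the log2 scale.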

Other observations

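Transcription factors known to repress Cdh1 that were in the mesenchymal list were detected in the TM4 libraries, as were 53.9% of all genes. Their part in the low Cdh1 count was not tested. Snai1 had 8682 mimic and 7345 scramble reads (log2 ratio 0.24), Snai2 had 2582 and 2356 (0.13), and Twist1 had 1479 and 1174 (0.33). Zeb1 had 1577 and 1945 reads (-0.30) and Zeb2 had 807 and 899 (-0.16). After the regression on length and GC content these values were -0.10 for Snai1, 0.03 for Snai2, -0.13 for Twist1, 0.00 for Zeb1 and 0.31 for Zeb2, so that no direction held for the group. Grhl2 and Esrp1, genes of epithelial cells, had 1 read in all and none.

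Sertoli genes that lay past 2-fold were Gdnf, a growth factor for spermatogonial stem cells, with 178 mimic and 77 scramble reads (1.20), and Wt1 (1.05), where 3.96% of all tested genes were that high. Among the other-lineage genes, Cd14 had 81 and 26 reads (1.62), while the macrophage genes Ptprc, Emr1 and Itgam had 0 reads in both libraries. The other macrophage genes lay between these, Csf1r with 18 and 25 reads (-0.46, interval -1.43 to 0.46) and Cd68 with 8 and 9, under the minimum.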
